A study of Mus musculus with 37 samples.

Results

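Matrix metalloproteinases are zinc-dependent enzymes that cut collagens and other proteins of the extracellular matrix, and 7 of their genes were followed by name, Mmp2, Mmp3, Mmp9, Mmp12, Mmp13, Mmp14 and Mmp19. Of these, 6 had a row in each of the 2 count tables, among 11965 genes counted in macrophages and 14028 in fibroblasts, and all 6 passed the filter on low counts in both tables. Mmp12 was not analysed here.

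The cells came from BALB/c female mice aged 8 weeks, and the labels name no genetic change. Bone marrow cells were turned into macrophages with medium conditioned by L929 cells, a line that secretes a macrophage growth factor. They were then grown for 7 days on collagen I with fibroblasts of mesometrial fat, of lung or of the mammary fat pad (4 libraries each), or collected at day 0 without fibroblasts (4 libraries). Fibroblasts were depleted of cells carrying EpCAM or CD45, and grown with macrophages or alone for 7 days: fat 3 co-cultures and 2 mono-cultures, lung 3 and 3, mammary 5 and 5. Fibroblasts were expanded for 5 days when from lung and 6 days when from fat or mammary fat pad. In any comparison of lung with another organ, expansion time and organ cannot be told apart. Each replicate of fat and mammary fibroblasts pooled 2 females. Live cells positive for F4/80 and CD11b were sorted as macrophages and negative ones as fibroblasts. Macrophages kept alone for 7 days were not analysed here, so the effect of the fibroblasts and that of the time in culture cannot be told apart in any comparison with day 0.

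Most of these enzymes are secreted as inactive precursors and are opened by other proteases. Mmp14 encodes a collagenase held in the cell membrane that activates the MMP2 precursor on the cell surface. Mmp2 and Mmp9 encode the gelatinases, Mmp13 the main interstitial collagenase of rodents, Mmp3 stromelysin 1, which also activates other members, and Mmp19 a secreted member with a broad range of matrix substrates. Tissue inhibitors of metalloproteinases (TIMPs) block the active enzymes, and fibroblasts and macrophages are both known sources of the family.

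In GRCm38 the genes lie at chr14:54431612-54445364 (Mmp14), chr8:92827291-92853420 (Mmp2), chr2:164940780-164955850 (Mmp9), chr9:7445822-7455975 (Mmp3), chr9:7272514-7283331 (Mmp13) and chr10:128790910-128800824 (Mmp19), all on the plus strand. Mmp13 and Mmp3 belong to the family's cluster on chromosome 9, with 162 kb between the end of Mmp13 and the start of Mmp3, where Mmp12 lies. Mmp19 overlaps Gm47093 and Tmem198b on the opposite strand, and the use of strand in counting is not given in the sources used here, so reads of these genes cannot be told apart from those of Mmp19.

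RefSeq promoters of build GRCm38.p6 were found for 3 of the 6 genes, Mmp3, Mmp13 and Mmp14. Those of Mmp3 and Mmp13 are shown because these genes of the same cluster had the most similar profiles of any pair of members across the fibroblast libraries (r = 0.71). The 250 bases before the transcription start run 5′ to 3′ on the plus strand, with capitals marking the match to the AP-1 motif TGANTCA, which reads the same on both strands.
Mmp3: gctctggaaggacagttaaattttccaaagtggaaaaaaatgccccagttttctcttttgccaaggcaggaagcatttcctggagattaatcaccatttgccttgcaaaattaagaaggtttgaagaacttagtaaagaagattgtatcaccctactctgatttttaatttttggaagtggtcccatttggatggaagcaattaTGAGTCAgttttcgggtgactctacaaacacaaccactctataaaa
Mmp13: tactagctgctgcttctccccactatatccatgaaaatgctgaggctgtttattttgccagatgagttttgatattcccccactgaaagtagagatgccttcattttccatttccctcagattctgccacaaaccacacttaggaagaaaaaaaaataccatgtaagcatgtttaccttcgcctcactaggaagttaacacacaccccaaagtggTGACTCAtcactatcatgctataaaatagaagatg
The Mmp3 window, chr9:7445572-7445821, holds TGAGTCA beginning 46 bases before the start, and the Mmp13 window, chr9:7272264-7272513, holds TGACTCA beginning 35 bases before it. The Mmp14 window had no match. Of 32851 mouse promoter windows of this length, 2217 (6.75%) hold the motif, and a match in sequence does not show that a factor binds there.

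A macrophage library held 3040103 to 6223115 counts in total, and a fibroblast library 3304605 to 7487355. Levels are given as CPM, counts per 1000000 of the library total after TMM scaling, and since reads come from transcript 3′ ends they are compared between groups for 1 gene, not between genes. Adjusted p-values are from edgeR's quasi-likelihood test with Benjamini-Hochberg adjustment over all genes of a table, a gene being called under 0.05. The 16 macrophage markers summed to 48208 to 82402 CPM in macrophage libraries, and the 14 fibroblast markers to 18744 to 55883 CPM in fibroblast libraries. Each sort also held RNA of the other cell type. In macrophages, 13 of the 14 fibroblast markers were counted, and their sum was 228 to 409 CPM with fat, 132 to 263 with lung and 419 to 555 with mammary fibroblasts, against 7.24 to 19.2 at day 0. In fibroblasts, the macrophage markers summed to 615 to 3564 CPM in fat co-culture and 341 to 430.2 in fat mono-culture, to 1991 to 3051 in lung co-culture and 391 to 793 in lung mono-culture, and to 765 to 2258 in mammary co-culture and 34.7 to 664 in mammary mono-culture. In such bulk samples, fewer cells of a type and less RNA per cell cannot be told apart. The labels of 1 library disagree: lung mono-culture replicate 3 is titled lung but has mammary fat pad as its tissue. Its summed level of 3 lung fibroblast genes (Tbx4, Tbx5, Foxf1) was 43.9 CPM, against 63.1 and 68.8 in the other lung mono-cultures and 6.09 to 8.74 in mammary mono-cultures, and it was kept as lung.

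Macrophage libraries from co-culture, which also held fibroblast RNA, carried more RNA of most members than those of day 0. Called higher were 5 of the 6 with fat fibroblasts, beside 15.8% of all genes tested. With lung fibroblasts 5 were called higher, beside 14.6%, and with mammary fibroblasts 4, beside 14.4%. Mmp14, Mmp19, Mmp2 and Mmp3 were higher in all 3 co-cultures, Mmp9 with fat and lung fibroblasts, and Mmp13 was called in none. After subtraction of an estimated share of fibroblast RNA, given below, only Mmp14 and Mmp19 stayed called higher in all 3. Mmp3 and Mmp9 then stayed called higher with lung fibroblasts only, and Mmp2 with none. Both edgeR and DESeq2 called 0 members lower, beside 14.4%, 13.2% and 11.8% of all genes with fat, lung and mammary fibroblasts, and at an unadjusted p under 0.05 there was 1, Mmp13 with mammary fibroblasts. The 3 comparisons share the day 0 libraries. Mmp2, Mmp3 and Mmp9 had at most 5, 1 and 6 counts in a day 0 library, under the filter's minimum count of 10. They passed the filter through the co-cultures, where they were higher, so their calls add no separate support to this tally.

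Mmp14 had the clearest order between organs. Its level was 43.8, 78.5, 69.1 and 68.1 CPM in macrophages with fat fibroblasts, 27.1, 24.0, 39.9 and 29.3 with lung fibroblasts, and 111, 140.4, 189 and 202 with mammary fibroblasts, against 4.44, 4.23, 6.89 and 3.72 at day 0. No group overlapped another. Over day 0, the log2 fold change was 3.73 with fat (SE 0.27, adjusted p = 9.08e-09), 2.63 with lung (adjusted p = 9.6e-07) and 5.04 with mammary fibroblasts (SE 0.27, adjusted p = 2.48e-10). All 3 organs also differed from each other, by 1.10 on the log2 scale for fat over lung (adjusted p = 0.00572), -1.31 for fat over mammary (adjusted p = 0.00124) and -2.41 for lung over mammary (adjusted p = 1.34e-06). These calls held under every alternative run. Between organs, 2 of the 6 members were called for fat against lung, beside 3.1% of all genes, 1 for fat against mammary, beside 2.72%, and 4 for lung against mammary, beside 5.59%.

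Mmp19 was higher with each fibroblast type and did not separate the organs. It had 51.0, 59.5, 51.6 and 50.9 CPM with fat, 54.7, 62.2, 71.9 and 75.5 with lung and 59.0, 60.8, 52.9 and 62.2 with mammary fibroblasts, against 23.7, 41.3, 33.0 and 19.4 at day 0. Every co-cultured library lay above every day 0 library. The log2 fold changes were 0.88 with fat (SE 0.17, adjusted p = 0.000638), 1.19 with lung (SE 0.17, adjusted p = 2.59e-05) and 1.02 with mammary fibroblasts (SE 0.17, adjusted p = 0.000144). Between organs they ranged from -0.31 for fat over lung (95% interval -0.66 to 0.03) to 0.17 for lung over mammary (-0.17 to 0.51), none of them called.

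Mmp2 was low throughout in macrophages, and its rises over day 0 were below the estimated share of fibroblast RNA given below. It had 9.52, 6.87, 13.7 and 7.77 CPM with fat, 1.85, 2.96, 2.72 and 1.35 with lung and 9.08, 8.76, 8.48 and 8.12 with mammary fibroblasts, against 0.579, 0.325, 1.04 and 0.620 at day 0. Macrophages with fat and mammary fibroblasts lay above those with lung fibroblasts, and these above day 0, without overlap. The log2 fold change over day 0 was 3.77 with fat (SE 0.34, adjusted p = 5.7e-08), 1.64 with lung (SE 0.41, adjusted p = 0.00518) and 3.64 with mammary fibroblasts (SE 0.34, adjusted p = 1.03e-07). Fat exceeded lung by 2.13 (adjusted p = 6.47e-05), lung over mammary was -1.998 (adjusted p = 0.000119), and fat over mammary was 0.14 (95% interval -0.34 to 0.61).

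Mmp3 rested on few reads. It had 2.47, 2.98, 3.31 and 2.36 CPM with fat, 3.90, 5.92, 6.58 and 5.72 with lung and 3.82, 1.05, 1.12 and 1.80 with mammary fibroblasts, against 0.193, 0.325, 0 and 0.207 at day 0, where the 4 libraries held 3 counts together. The ratio of summed counts to day 0, each scaled to its libraries, was 16.5 with fat (95% counting interval 5.32 to 82.6), 32.7 with lung (10.9 to 161) and 12.2 with mammary fibroblasts (3.91 to 61.3). In the fit across all genes the adjusted p-values were 6.65e-05, 1.41e-06 and 0.000389 for fat, lung and mammary. Lung exceeded mammary by 1.45 on the log2 scale (SE 0.34, adjusted p = 0.0147). That call was lost without lung replicate 3 (1.36, adjusted p = 0.0515) or mammary replicate 2 (1.24, adjusted p = 0.0518), and when only the groups compared entered the fit (1.45, adjusted p = 0.0534).

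Like Mmp3, Mmp9 had group means in the order lung, fat, mammary, day 0. It had 1.33, 5.04, 2.84 and 2.12 CPM with fat, 6.99, 7.40, 4.08 and 5.38 with lung and 2.39, 0.525, 0.892 and 2.16 with mammary fibroblasts, against 0.579, 1.95, 1.25 and 0.827 at day 0. Lung co-cultures lay above day 0 and above the mammary co-cultures, and the other groups overlapped. The log2 fold change over day 0 was 2.43 with lung (SE 0.46, adjusted p = 0.000487) and 1.35 with fat fibroblasts (SE 0.51, adjusted p = 0.0494). The fat call was lost without fat replicate 2, 3 or 4 and without day 0 replicate 1, 3 or 4, with values of 0.93 to 1.46 and adjusted p of 0.0555 to 0.193. With mammary fibroblasts it was 0.49 (95% interval -0.63 to 1.61). Lung exceeded mammary by 1.94 (SE 0.42, adjusted p = 0.00719). Neutrophils are another known source of Mmp9, and of 10 neutrophil markers 2 were counted, S100a8 and Mmp8, whose sum was 17.0 to 29.1 CPM with fat, 7.26 to 11.5 with lung and 11.4 to 37.3 with mammary fibroblasts, against 32.3 to 50.7 CPM at day 0. The part of neutrophil RNA in the Mmp9 values was not tested.

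Mmp13 stayed between 0.541 and 4.76 CPM in all macrophage libraries and was not called against day 0. Its log2 fold changes were -0.30 with fat, 0.08 with lung and -1.17 with mammary fibroblasts (adjusted p = 0.0788). Leaving out mammary replicate 1 gave -1.51 (adjusted p = 0.0473).

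**Figure D1:**
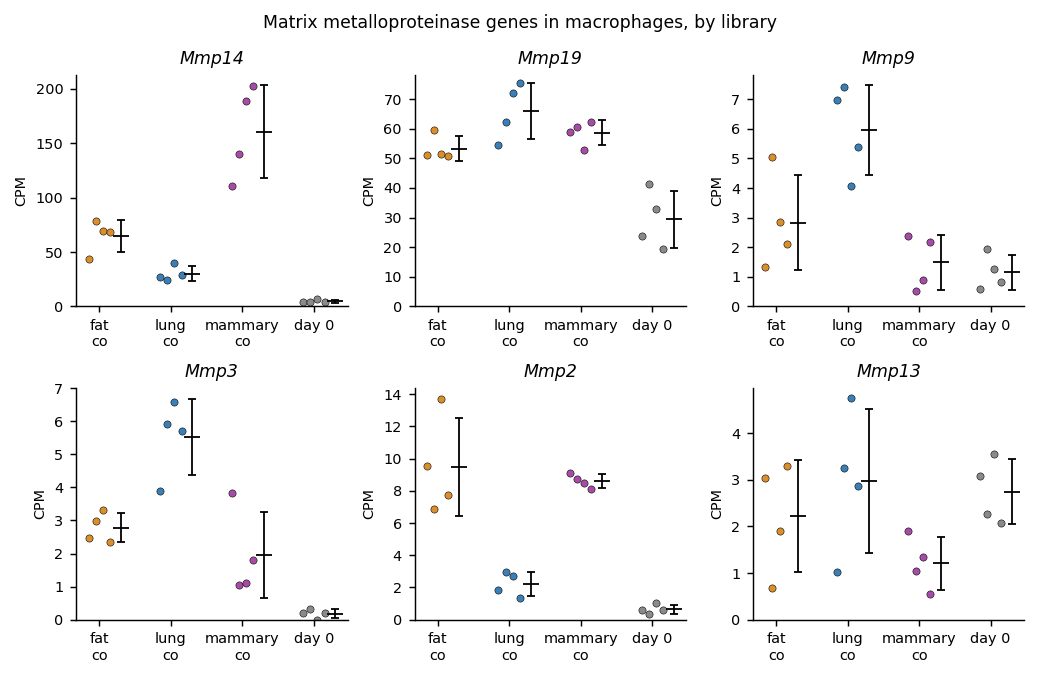
CPM of the 6 members in each macrophage library (points, 4 per group) with the group mean and SD (bars), for co-culture with fat, lung and mammary fibroblasts and for day 0. Mmp14 sat between 111 and 202 CPM with mammary fibroblasts and between 3.72 and 6.89 CPM at day 0. Mmp3, Mmp9, Mmp13 and Mmp19 had their highest means with lung fibroblasts, Mmp13 and Mmp19 without a called difference between organs.

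Because fibroblast RNA was present in the co-cultured macrophages, each member's rise was set beside what that RNA would bring. The share of fibroblast RNA was taken as the median over 13 fibroblast markers of their rise over day 0, divided by their level in fibroblasts co-cultured from the same organ, and was 1.37% ± 0.31 with fat, 0.783% ± 0.37 with lung and 0.931% ± 0.03 with mammary fibroblasts (SD, n = 4 each). Macrophages and fibroblasts were scaled in separate tables, so this sets levels side by side without a test. Mmp14 rose by 60.1, 25.3 and 156 CPM with fat, lung and mammary fibroblasts, and the share times its fibroblast level was 8.89, 2.97 and 6.00 CPM. As a percentage of the fibroblast level these rises were 9.25%, 6.65% and 24.2%, while the 13 markers reached at most 3.54%, 2.60% and 2.82%. Mmp19 rose by 23.9, 36.7 and 29.3 CPM, with shares of 0.862, 0.672 and 0.864 CPM. After subtraction of the share from the counts, Mmp14 and Mmp19 remained called in all 3 comparisons, at 5.01 for Mmp14 with mammary fibroblasts (adjusted p = 1.57e-09).

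Mmp2 did not exceed the share. Its rises of 8.83, 1.58 and 7.97 CPM were below the shares of 15.9, 6.66 and 10.0 CPM with fat, lung and mammary fibroblasts. Subtraction left 0 counts of Mmp2 in all 3 co-cultures, against 12 at day 0, so its call turned to lower in each (a fitted -4.71, with adjusted p = 0.0371, 0.0374 and 0.0310 for fat, lung and mammary). Mmp3 rose by 2.60, 5.35 and 1.77 CPM beside shares of 1.52, 3.62 and 1.10 CPM. After subtraction its call held with lung (3.36, adjusted p = 0.0301) and was lost with fat (2.77, adjusted p = 0.0884) and mammary fibroblasts (2.31, adjusted p = 0.184). The share times the fibroblast level of Mmp9 was 0.0780, 0.00781 and 0.222 CPM, and its differences from day 0 were 1.68, 4.81 and 0.341 CPM. Subtraction ended its call with fat fibroblasts (1.38, adjusted p = 0.0567).

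**Figure D2:**
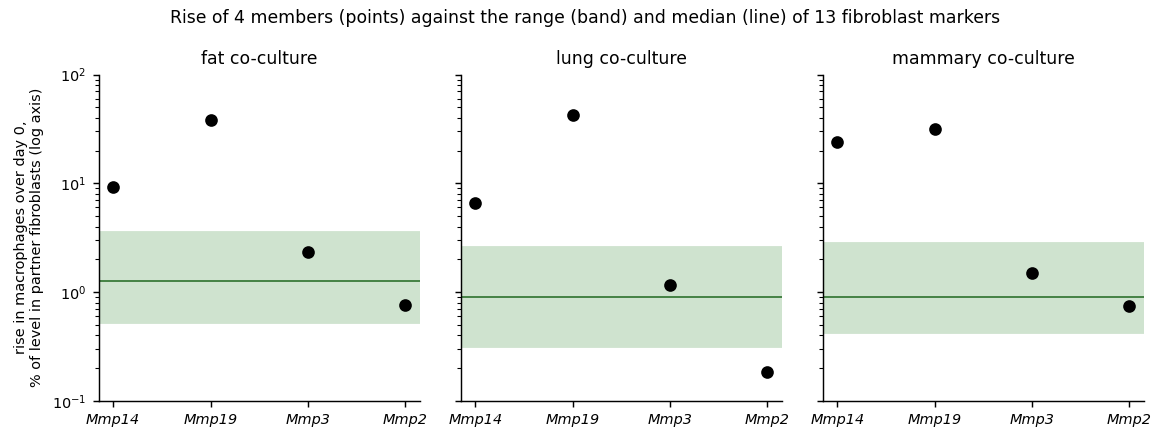
Rise of 4 members in co-cultured macrophages over day 0 as a percentage of their level in fibroblasts co-cultured from the same organ (points, log axis), for fat, lung and mammary co-culture; the band spans the lowest to highest of 13 fibroblast markers and the line is their median. Mmp14 and Mmp19 lay above the band in all 3 panels, Mmp3 inside it, and Mmp2 inside it with fat and mammary and below it with lung fibroblasts.

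Across the 16 macrophage libraries, the genes most like each member were found by Pearson's r of log2(CPM + 0.5), a description in which day 0 and co-culture drive most of the spread. Mmp14 was most like Mfap5, Fbn1 and Cd248 (r = 0.973, 0.970 and 0.964), genes that the partner fibroblasts held at 233 to 1662 CPM. In macrophages Mfap5 averaged 10.8, 2.91 and 15.4 CPM with fat, lung and mammary fibroblasts, against 0.104 at day 0, the order of the organs shown by Mmp14. Mmp2 was most like Pmepa1, Col6a1 and Cd86 (r = 0.963, 0.962 and 0.959). Mmp19 was most like Hpse, the gene of heparanase, and Nacc2 (r = 0.959 and 0.955). Hpse had a mean of 303, 407 and 330 CPM with fat, lung and mammary fibroblasts and 140 CPM at day 0, against 14.5, 20.4 and 52.0 CPM in the fibroblasts. Mmp3 was most like Cd38, Tnfsf14 and F5 (r = 0.957, 0.954 and 0.954), and Mmp9 like Hbegf, Zfand2a and Ccl6 (r = 0.912, 0.885 and 0.883). Mmp13 was most like Ttc30a1, Pnpt1 and Tada1 (r = 0.889, 0.845 and 0.840). Among the members themselves, Mmp2 and Mmp14 had r = 0.91 and Mmp3 and Mmp19 r = 0.83, while Mmp9 and Mmp2 had r = 0.03.

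In fibroblasts the members were compared between co-culture and mono-culture of the same organ. With fat fibroblasts 0 of the 6 were called, beside 0.201% of all genes, by edgeR and by DESeq2, with 1 (Mmp19) at an unadjusted p under 0.05. With lung fibroblasts 0 were called, beside 1.31%, by either tool, and 0 had an unadjusted p under 0.05. With mammary fibroblasts 2 were called, Mmp9 higher and Mmp13 lower, beside 3.65%.

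Mmp9 rose in mammary fibroblasts with co-culture. It had 6.61, 28.7, 8.97, 22.1 and 53.1 CPM in co-cultures 1 to 5, against 2.68, 4.15, 1.52, 0.972 and 2.71 CPM in mono-cultures 1 to 5. Every co-culture lay above every mono-culture, and so above the mono-culture of its number. The sample titles number both cultures 1 to 5 without stating that a number marks the same cells. The log2 fold change was 3.28 (SE 0.62, adjusted p = 0.00612), and it held under every alternative run (2.75 to 3.60, largest adjusted p = 0.0310). Macrophages in mammary co-culture averaged 1.49 CPM of Mmp9, below the fibroblasts' 23.9 CPM. The co-cultures with the most macrophage marker RNA, replicates 1 and 3 at 1821 and 2258 CPM, had the least Mmp9. The other 3 had 765 to 1055 CPM of macrophage markers. Replicates 1 and 3 also stood apart for Mmp3 and Mmp13, and a link between macrophage RNA and Mmp9 was not tested. Of 10 neutrophil markers 2 were counted in fibroblasts, Camp and Mmp8, and S100a8 was not. They summed to 0.906 to 2.56 CPM in mammary co-culture and 0 to 2.01 CPM in mammary mono-culture. In fat fibroblasts Mmp9 had 4.01, 11.3 and 1.78 CPM in co-culture and 2.73 and 0.383 CPM in mono-culture, and in lung 1.14, 1.47 and 0.389 CPM in co-culture and 0.214, 0.738 and 0.388 CPM in mono-culture. Neither organ's change was called (1.83, 95% interval -0.17 to 3.83, in fat and 0.97, -1.48 to 3.43, in lung). The difference in response between lung and mammary fibroblasts was -2.30 (95% interval -5.34 to 0.74) and was not called. For the responses to co-culture, both edgeR and DESeq2 called 0 members in all 3 pairs of organs, beside 0% of all genes for fat over lung, 0.0242% for fat over mammary and 0.0966% for lung over mammary, and at an unadjusted p under 0.05 there was 1, Mmp13 for fat over mammary (3.70, adjusted p = 0.615).

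Mmp13 fell in mammary fibroblasts. It had 2.36, 0, 8.97, 0 and 0.302 CPM in co-cultures 1 to 5, against 51.0, 7.51, 60.0, 3.89 and 9.03 CPM in mono-cultures 1 to 5. The groups overlap, but each co-culture was below the mono-culture of its number. The log2 fold change was -3.54 (SE 0.95, adjusted p = 0.0453). The call was lost without co-culture replicate 1, 2, 4 or 5 and without mono-culture replicate 1, 3 or 5 (-3.76 to -2.98, adjusted p of 0.0537 to 0.114), and when only the groups compared were fitted (adjusted p = 0.197). It was also lost after subtraction of the macrophage share (-3.51, adjusted p = 0.0555) and with no filter on low counts (-3.53, adjusted p = 0.0514), so it held in 6 of 16 alternatives. With the replicate number as a block it was -3.91 (adjusted p = 0.000880). In fat fibroblasts Mmp13 had 4.54, 32.6 and 9.78 CPM in co-culture and 18.1 and 9.97 CPM in mono-culture. In lung it had 10.0, 7.82 and 3.89 CPM in co-culture and 15.4, 11.4 and 6.99 CPM in mono-culture.

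Mmp3 in mammary fibroblasts separated the same replicates. It had 155, 21.7, 366, 21.5 and 27.2 CPM in co-cultures 1 to 5, against 264, 51.6, 534, 40.3 and 62.5 CPM in mono-cultures 1 to 5. Replicates 1 and 3 were the highest in both cultures, for Mmp3 and for Mmp13, and each co-culture was below the mono-culture of its number. Without the block the log2 fold change was -0.69 (SE 0.77, adjusted p = 0.719), and with the replicate block it was called (-0.91, adjusted p = 0.00288). In lung fibroblasts Mmp3 had 402, 630.4 and 355 CPM in co-culture and 352, 561 and 248 CPM in mono-culture. In fat it had 66.6, 122 and 145 CPM in co-culture and 231 and 297 CPM in mono-culture, without overlap but with a log2 fold change whose interval was -3.54 to 1.05. The difference in response between lung and mammary fibroblasts was called with the block for Mmp3 (1.20, adjusted p = 0.0261) and Mmp13 (3.25, adjusted p = 0.0453), and not called without it. That block paired the lung libraries by number as well.

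The gene of the gelatinase Mmp2 was abundant in every fibroblast group. It had 1273, 773, 1569.6, 920.1 and 846 CPM in mammary co-cultures 1 to 5 and 1439, 1071, 2226, 1323 and 1721 CPM in mono-cultures 1 to 5. The change was -0.53 (SE 0.24, adjusted p = 0.258), and with the replicate block -0.54, which was called (adjusted p = 0.0308). In fat it had 1159, 780.4 and 1539 CPM in co-culture and 1292 and 2248 CPM in mono-culture. In lung it had 942, 771 and 841 CPM in co-culture and 1231, 1199 and 1539 CPM in mono-culture.

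Mmp14 and Mmp19 in fibroblasts gave no called change with co-culture. Mmp14 averaged 649 CPM ± 77.8 in fat co-culture (SD, n = 3) and 905 CPM ± 119 in fat mono-culture (n = 2), 379.8 ± 32.3 in lung co-culture and 513 ± 84.4 in lung mono-culture (n = 3 each), and 644 ± 118 in mammary co-culture and 815 ± 233 in mammary mono-culture (n = 5 each). The log2 fold changes were -0.48 (95% interval -0.996 to 0.04), -0.43 (-0.90 to 0.03) and -0.34 (-0.70 to 0.02). Each mammary co-culture was below the mono-culture of its number for Mmp14, by log2 ratios of -0.66 to -0.0029, and 0 of 16 alternatives called the change. Mmp19 averaged 63.0 ± 8.64 CPM in fat co-culture and 89.1 ± 8.68 in fat mono-culture, 85.8 ± 12.2 in lung co-culture and 103 ± 17.3 in lung mono-culture, and 92.8 ± 19.4 in mammary co-culture and 89.8 ± 16.2 in mammary mono-culture.

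**Figure D3:**
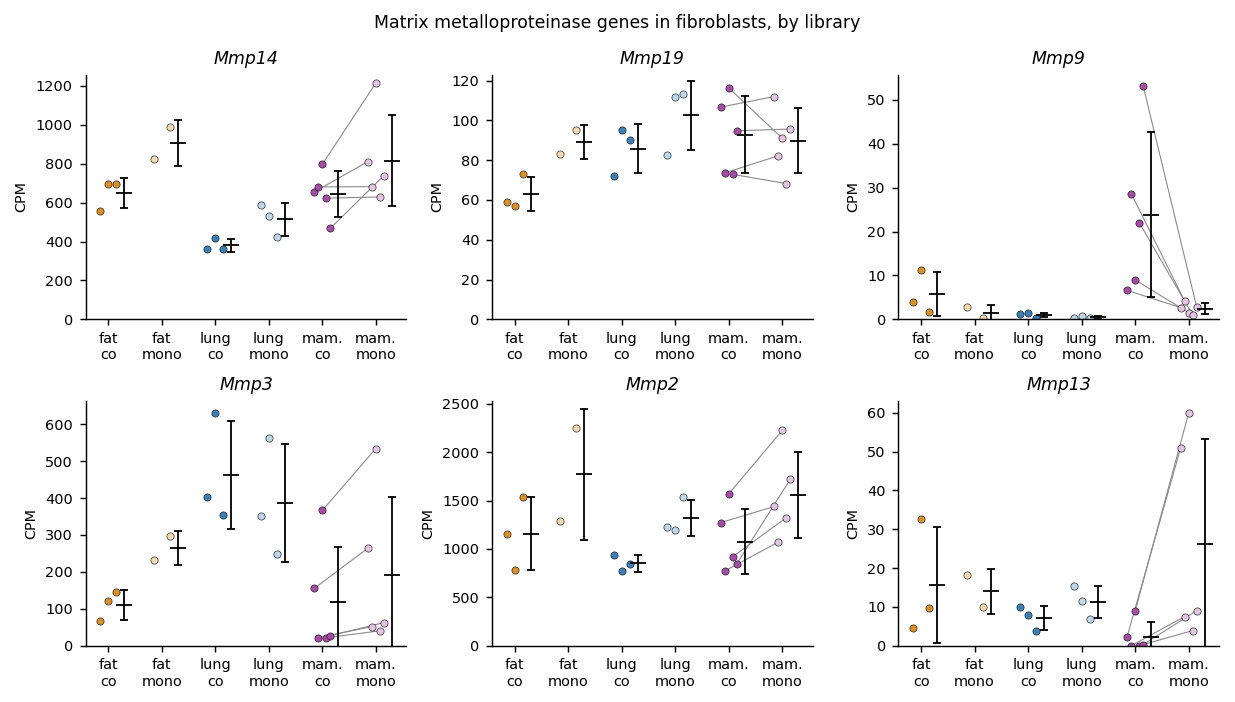
CPM of the 6 members in each fibroblast library (points) with the group mean and SD (bars), co-culture left of mono-culture for fat, lung and mammary; lines join mammary libraries of the same replicate number. The mammary co-cultures had 6.61 to 53.1 CPM of Mmp9 against 0.972 to 4.15 CPM in mono-culture. In all 5 pairs the co-culture lies below the mono-culture for Mmp2, Mmp3, Mmp13 and Mmp14.

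Between organs, Mmp14 was lower in lung than in mammary fibroblasts in both cultures. In co-culture the difference was -0.76 (SE 0.20, adjusted p = 0.00763), where 2 of the 6 members were called beside 32.2% of all genes, and in mono-culture -0.67 (SE 0.20, adjusted p = 0.0136), where 1 was called beside 40.3%. Without the library of conflicting labels the mono-culture call was lost (-0.54, adjusted p = 0.0820). Mmp9 was lower in lung than in mammary co-cultures by -4.65 (SE 0.86, adjusted p = 0.000387). Fat against lung, beside 9.41% of all genes in co-culture and 9.28% in mono-culture, had 1 called member in each, Mmp14, at 0.77 (adjusted p = 0.0345) and 0.82 (adjusted p = 0.0418). The co-culture call was lost without fat replicate 2 or 3 or any lung replicate (0.72 to 0.84, adjusted p of 0.0598 to 0.123). The mono-culture call was lost without any 1 of the 5 libraries (0.67 to 0.95, adjusted p of 0.0524 to 0.325), the library of conflicting labels included (0.69, adjusted p = 0.155). Fat against mammary co-cultures, beside 25.4%, had Mmp9 at -2.05 (adjusted p = 0.0381) and Mmp19 at -0.56 (adjusted p = 0.0338), and both calls were lost when only the groups compared were fitted (adjusted p = 0.133 and 0.0880). The Mmp9 call was also lost without fat replicate 1 or 3 or mammary replicate 2 or 5 (-1.97 to -1.53), and the Mmp19 call without fat replicate 1 or 2 or mammary replicate 1, 3 or 5 (-0.55 to -0.49). In mono-culture 0 were called between fat and mammary, beside 23.3%, by edgeR and by DESeq2, and 0 had an unadjusted p under 0.05. Fat and lung fibroblast libraries held 500 to 1410.5 CPM of 4 mesothelial markers, and mammary libraries 30.7 to 138, and the part of these cells in the organ differences was not tested.

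**Figure D4:**
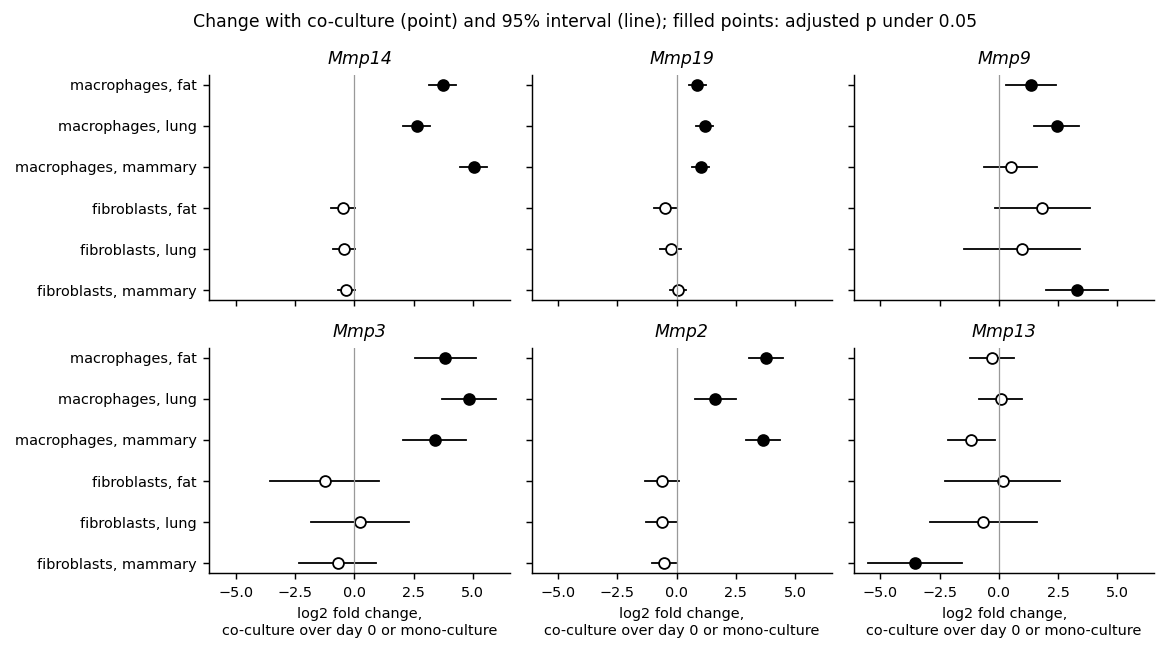
Log2 fold change (point) and 95% interval (line) of the 6 members in macrophages over day 0 and in fibroblasts over mono-culture, by organ; filled points had an adjusted p under 0.05. Mmp14 lay at 2.63 to 5.04 in macrophages and -0.48 to -0.34 in fibroblasts, and Mmp9 was called in macrophages with fat and lung and in mammary fibroblasts.

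In fibroblasts, the profile of Mmp3 across the 21 libraries was most like Ociad2, Cep19 and Fmo2 (r = 0.926, 0.904 and 0.903), and that of Mmp13 like Mpv17, Tmem267 and Hsd17b12 (r = 0.911, 0.840 and 0.838). Mmp9 was most like Hikeshi, Cdkn2d and Syce2 (r = 0.862, 0.855 and 0.852), Mmp14 like Lamp1, Rab43 and Tmigd3 (r = 0.870, 0.849 and 0.846), Mmp2 like Aebp1, Hexa and Dpp7 (r = 0.835, 0.814 and 0.814), and Mmp19 like Adamts15, Sh3rf3 and Ptdss2 (r = 0.799, 0.779 and 0.754). Mmp3 and Mmp13 had r = 0.71 with each other and Mmp3 and Mmp9 r = -0.70, over libraries that also differ in organ.

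RNA of 3 inhibitors of the family was higher in co-cultured macrophages. Of all genes, 15.8%, 14.6% and 14.4% were called higher with fat, lung and mammary fibroblasts, and 14.4%, 13.2% and 11.8% lower. Timp1, Timp2 and Timp3 were the 3 tested of 6 listed inhibitors, and all 3 were higher in each co-culture, where the list's median log2 fold change was 3.30 with fat, 3.13 with lung and 3.71 with mammary fibroblasts and that of all genes -0.01. Timp2 averaged 1087, 1222 and 1183 CPM with fat, lung and mammary fibroblasts and 454 CPM at day 0. Timp1 averaged 47.1, 41.7 and 62.7 CPM and 4.75 CPM at day 0. Of 16 other metalloproteinase genes, 4 were tested, and in each co-culture 2 rose and 1 fell. The one that fell was Mmp8, the neutrophil collagenase, at 17.8, 6.39 and 14.1 CPM with fat, lung and mammary fibroblasts, against 37.9 CPM at day 0. Mmp23 rose in all 3, Mmp11 with fat and mammary fibroblasts, and Mmp27 with lung fibroblasts. The part of fibroblast RNA in the changes of these inhibitors and metalloproteinases was not tested.

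In the lists that follow, counts stand beside 15.8%, 14.6% and 14.4% of all genes called higher and 14.4%, 13.2% and 11.8% called lower with fat, lung and mammary fibroblasts. Proteases of the plasminogen system and their controls, which act upstream of the members, had 5 of 7 tested genes higher in each co-culture, with 1 lower with lung fibroblasts. Plat, the gene of tissue plasminogen activator, rose in each, to 3.15, 2.06 and 1.64 CPM with fat, lung and mammary fibroblasts, against 0.508 CPM at day 0. Of the tested ADAM and ADAMTS genes, 4 of 9 rose and 2 fell with fat and with lung, and 5 rose and 1 fell with mammary fibroblasts, Adamts1 rising and Adam19 falling in each. Of 7 cathepsins and related proteases, 3 rose with fat, 3 with lung and 2 with mammary fibroblasts, and 1, 2 and 1 fell. Ctsb and Prtn3 rose and Ctsk fell in each co-culture. All 16 tested matrix genes rose in each, with a median of 4.83, 3.97 and 5.45, and several of them, such as Dcn and Col3a1, are also fibroblast markers. The part of fibroblast RNA in the changes of these lists was not tested. AP-1 and ETS factors, known regulators of several of the family's promoters, had 7, 5 and 3 of 11 tested genes higher with fat, lung and mammary fibroblasts and 1, 1 and 2 lower. The AP-1 gene Fosl2 rose in each, to 17.7, 15.4 and 9.99 CPM, against 4.50 CPM at day 0, and Ets1 fell with fat and mammary fibroblasts, to 1.12 and 2.56 CPM, against 5.85 CPM at day 0. Of 9 tested partners and inducers, 2 rose and 2 fell with fat, 2 rose and 3 fell with lung, and 3 rose and 1 fell with mammary fibroblasts. Cd44 fell with fat fibroblasts, to 38.5 CPM against 80.4 CPM at day 0, and Itgav with lung fibroblasts, to 31.7 CPM against 67.9 CPM at day 0. Il1b, which rose in each, averaged 105, 94.9 and 53.5 CPM with fat, lung and mammary fibroblasts and 4.58 CPM at day 0.

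In fibroblasts, 0, 3 and 9 of the 83 tested genes of these 8 lists were called with fat, lung and mammary fibroblasts, beside 0.201%, 1.31% and 3.65% of all genes. With fat fibroblasts edgeR called 0 of the 83 tested, with 16 at an unadjusted p under 0.05, and DESeq2 called 4. With lung fibroblasts 1 of 5 inhibitors, 1 of 10 plasminogen system genes and 1 of 18 matrix genes rose, namely A2m at 29.3 CPM in co-culture and 3.05 CPM in mono-culture (adjusted p = 0.0449), Serpine2 and the matrix glycoprotein gene Tnc. In mammary fibroblasts A2m, a broad protease inhibitor, rose to 22.8 CPM in co-culture, against 3.12 CPM in mono-culture (adjusted p = 0.0122). Serpine2 and Ctsk fell there, to 217 CPM of Ctsk in co-culture against 501 CPM in mono-culture (adjusted p = 0.0101), while Adam8, Adamts9, Col1a1 and Col5a1 rose. Tgfb1 fell to 49.6 CPM in co-culture, against 89.0 CPM in mono-culture (adjusted p = 0.0075), and Il1b had 1.82 CPM in co-culture and 0.0447 CPM in mono-culture, beside macrophage marker sums of 765 to 2258 CPM in co-culture and 34.7 to 664 CPM in mono-culture, whose part in these changes was not tested.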

How the data were processed

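The deposited raw counts per gene, 1 table for 16 macrophage libraries and 1 for 21 fibroblast libraries, were used, and the authors' normalised tables were not. Per the labels' protocols, libraries were made from mRNA 3′ ends. Reads were demultiplexed with bcl2fastq, aligned with STAR 2.4.2a to mm10 and counted with tools that include HTSeq, per the submitters' processing notes. For annotation, strand setting and molecular identifiers, details were not given in the sources used here. Every gene reaches 6 counts in some library, so rarer genes are not analysed here. Groups came from the sample labels. 1 fibroblast column shows its group, fat mono-culture, but no matching replicate number.

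Each table was fitted once with edgeR 4.0.16 in R 4.3.3 (TMM, filterByExpr with a minimum count of 10, robust quasi-likelihood fit, 1 coefficient per group), on 10295 macrophage and 12421 fibroblast genes. The fit was tested on simulated data. Intervals are at 95%, and those of count ratios cover counting error only. DESeq2 1.42.0, other scaling, no filter, fits of the compared groups alone, left-out libraries, subtraction of the partner share and a replicate block were the alternatives. Within groups, 54 library pairs differed by more than counting noise (chi-square per degree of freedom 3.47 to 72.2). The labels call all libraries repetitions and state separate animals for each replicate of fat and mammary fibroblasts only, so p-values for macrophages and lung fibroblasts may measure technical spread.

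Same-numbered mammary fibroblast cultures deviated together in all 5 pairs (r = 0.297 to 0.561). The numbers were taken as pairs where cultures of the same number are compared and in the replicate block, while the main fit was unpaired. Cultures of different number ranged from -0.565 to 0.500, and co-culture 1 was more like mono-culture 3 (0.500) than mono-culture 1 (0.411). The pairing therefore rests on the numbers and is not shown by r alone. Lung and macrophage numbers were not read as pairs, though the replicate block used them. Same-numbered lung cultures had 0.0427 to 0.343, against -0.350 to 0.0171 for different numbers. Deviations were taken from group means, so a positive r for the same number makes the others tend to be negative. These values do not set lung apart from mammary cultures, and the choice of pairs was not tested. Same-numbered macrophages had -0.359 to 0.290. All members are named. For each, the 3 genes of largest correlation are named, and list genes were taken from up to 3 called genes of largest change and the most abundant uncalled one per list and comparison, of which a selection is printed. Some genes are not reported here. Members and lists were chosen with earlier results of these data known.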

Additional observations from a re-analysis of the deposited data

Results flagged for a closer look

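Within groups of 4 or 5 libraries, 36 sets of member values were examined for a library standing apart from the rest by Dixon's criterion, which chance meets in about 1 of 20 sets, and 2 did. Mmp13 in mammary co-culture replicate 3 (8.97 CPM) stood above the other mammary co-cultures (0 to 2.36 CPM). Mmp19 in macrophage fat co-culture replicate 2 (59.5 CPM) stood above the other 3 (50.9 to 51.6 CPM).

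Among co-cultured macrophages, the organ of the fibroblasts made a called difference for 4 members, each tested directly between co-cultures. Mmp2 differed by 2.13 on the log2 scale for fat over lung and by -1.998 for lung over mammary. Mmp14 differed by 1.10 for fat over lung, -1.31 for fat over mammary and -2.41 for lung over mammary. Mmp3 and Mmp9 were higher with lung than with mammary fibroblasts, by 1.45 and 1.94. The Mmp3 call held in 10 of 13 alternatives and the Mmp9 call in all 13. The fibroblast marker sums had medians in the order mammary, fat, lung (472, 271 and 183 CPM), which is also the order of Mmp14. The estimated share of fibroblast RNA had the order fat, mammary, lung (1.37%, 0.931% and 0.783%). That share times the fibroblast level of Mmp14 was 8.89, 6.00 and 2.97 CPM in the same order. In co-cultured fibroblasts, the 14 markers had median sums of 47427 CPM for mammary, 21120 for fat and 20939 for lung. The part of fibroblast RNA in the Mmp14 and Mmp2 differences was not tested. The means of Mmp3 and Mmp9 had the order lung, fat, mammary. The share times the fibroblast level of Mmp3 had this order too (3.62, 1.52 and 1.10 CPM). For Mmp9 that product had the order mammary, fat, lung (0.222, 0.0780 and 0.00781 CPM). The part of fibroblast RNA in the Mmp3 and Mmp9 differences between organs was not tested.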

How the results depend on the processing

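Of 1432 alternative values of members, 45 lost a call, 15 gained one, 3 reversed and 1369 kept their side of the threshold. Among these 1369, called values kept their direction and 52 uncalled values changed sign. The reversals were Mmp2 in macrophages over day 0, at -4.71 with fat, lung and mammary fibroblasts after subtraction of the partner share, which left it without counts. Gains not given in the report were Mmp3 for fat over lung macrophages (-0.98, adjusted p = 0.0460) and fibroblast co-cultures (-2.06, adjusted p = 0.00373), and Mmp9 for lung over mammary mono-cultures (-2.34, adjusted p = 0.0102), with only the groups compared. DESeq2 also called Mmp9 for fat over lung co-cultures (2.56, adjusted p = 0.0299) and lung over mammary mono-cultures (-2.39, adjusted p = 0.0210). Leaving out mammary co-culture replicate 3 called Mmp3 (3.00) and Mmp13 (3.02) for lung over mammary co-cultures and Mmp13 for fat over mammary (4.15), as did leaving out fat replicate 1 (3.23), and macrophage Mmp13 was called for lung over mammary without lung replicate 1 (1.54).

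The number of genes called for co-culture over mono-culture was 25, 163 and 453 for fat, lung and mammary fibroblasts, against 142, 312 and 751 by DESeq2 and 0, 378 and 146 with only the groups compared. With the replicate block it was 367 for lung and 856 for mammary fibroblasts, and 63 instead of 12 for the difference between their responses. DESeq2 called 48, 27 and 51 genes for the 3 differences between responses, in the order fat over lung, fat over mammary and lung over mammary, and the fit of only the groups compared called 3 and 0 for the first pair. That fit called 1760 for fat over mammary co-cultures and 2515 for lung over mammary. Leaving out 1 library gave 0 to 7 calls for fat, 60 to 121 for lung and 265 to 484 for mammary fibroblasts with co-culture, 582 to 900 for fat over lung co-cultures, 427 to 907 for fat over lung and 1480 to 3078 for fat over mammary mono-cultures. It gave 0 to 9, 0 to 8 and 6 to 15 for the differences between responses. Among macrophages it gave 145 to 364 for fat over mammary and 339 to 703 for lung over mammary. Beyond fewer samples, the cause was not tested.

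For members, the replicate block changed the mammary calls given in the report and 1 other, Mmp9 in macrophages with fat fibroblasts (1.31, adjusted p = 0.0701). In macrophages the numbers are shared without evidence of pairing. In lung fibroblasts, same-numbered cultures had r of 0.0427 to 0.343 and those of different number -0.350 to 0.0171. The block paired them by number too. The block could not be fitted for fat or between organs of fibroblasts. Mmp2, Mmp3, Mmp9 and Mmp13 had at most 58 counts in a macrophage library, which limits small differences there.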
